A study of Mus musculus with 12 samples.

Results

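Grin3b encodes NR3B, a subunit of NMDA receptors, and the values described here are those of Grin3b and of 9 genes that lie beside it on mouse chromosome 10: Tmem259, Cnn2, Abca7, Polr2e, Gpx4, Sbno2, Stk11, Wdr18 and Med16. Every probe set that the array annotation assigns to one of these symbols alone was taken, whatever its level. This gave 20 probe sets for 10 genes, out of 45037 probe sets tested and 18193 genes measured. Grin3b, Tmem259, Cnn2, Abca7 and Med16 have 1 probe set each, and 14 of the 20 probe sets had a mean at or above the 40th percentile of all probe sets.

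The study read total RNA of 12 mouse samples on Affymetrix arrays, which measure each transcript with sets of short probes. There were 4 groups of 3 samples: wild-type mice at postnatal day 0 (P0), mice lacking NR3B at P0, wild-type mice at postnatal day 5 (P5) and mice lacking NR3B at P5. Not given in the sources used here are the strain, the sex, the design of the knockout allele, the deleted segment and the litters. Samples are numbered within a group, but no label ties each number to an animal of its own, and p-values therefore describe the spread between arrays, part of which may be technical. The tissue is given as brain, hindbrain and spinal cord in the titles and as brain alone in the descriptions. All 8 neuronal markers checked and all 8 Hox genes of hindbrain and spinal cord lay above the 40th percentile, whereas of 4 measured forebrain markers Emx1 and Tbr1 lay below it. Each marker gene, here and below, was read through its brightest probe set alone.

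NMDA receptors are glutamate-gated channels built from an obligatory GluN1 subunit together with GluN2 or GluN3 subunits. NR3B binds glycine rather than glutamate, lowers the calcium permeability of the channel, and is known above all from motor neurons of the brainstem and spinal cord. The genes beside the targeted gene are described here together with it.

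In RefSeq gene order on assembly GRCm38.p6, Med16 and Wdr18 come before Grin3b, and Tmem259, Cnn2, Abca7, Polr2e, Gpx4, Sbno2 and Stk11 follow it. The gene models of Grin3b and Tmem259 overlap at their ends. Another 4 measured genes, R3hdm4, Kiss1r, Arid3a and Arhgap45, lie among the 10. The RefSeq promoter table held entries for 9 of the 10 genes. The 250 bases upstream of the starts of Grin3b and Cnn2 are shown because these genes stand on either side of Tmem259 and their upstream sequences differ in make-up. Both are written 5′ to 3′ on the plus strand of GRCm38.p6, Grin3b at chr10:79970474-79970723 and Cnn2 at chr10:79988350-79988599. Capitals mark matches on either strand to the TATA box by the letters TATAAA and to the GC box by the letters GGGCGG. The CCAAT box was searched as well, by those letters on both strands, and is left in lower case. No match overlaps another.
Grin3b: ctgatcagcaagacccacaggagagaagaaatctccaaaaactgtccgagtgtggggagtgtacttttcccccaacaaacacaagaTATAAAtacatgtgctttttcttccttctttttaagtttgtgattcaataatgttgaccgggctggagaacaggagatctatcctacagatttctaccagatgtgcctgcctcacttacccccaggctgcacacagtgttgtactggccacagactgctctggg
Cnn2: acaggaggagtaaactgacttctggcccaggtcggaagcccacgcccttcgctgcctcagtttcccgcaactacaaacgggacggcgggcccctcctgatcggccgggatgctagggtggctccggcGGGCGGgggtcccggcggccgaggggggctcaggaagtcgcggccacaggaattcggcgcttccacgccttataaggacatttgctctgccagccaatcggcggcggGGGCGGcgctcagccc
The Grin3b sequence holds 1 TATA box, 0 GC boxes, 0 CCAAT boxes and 2 CG dinucleotides, and 46.0% of its bases are G or C. The Cnn2 sequence holds 2 GC boxes, 1 CCAAT box, 0 TATA boxes, 25 CG dinucleotides and 68.4% G or C, as is common upstream of widely expressed genes. Over 32851 promoter entries of the same length, 12.4% hold a TATA box by these letters, 32.7% hold a GC box, 33.8% hold a CCAAT box, and the median number of CG dinucleotides is 6. These matches describe the letters in the window and say nothing on which factors bind there.

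The arrays had been scaled to a common mean, and their median signals ran from 605.0 to 734.0. The spread within groups was wider at P0, where the median probe set had a within-group SD of 0.354 in wild type and 0.332 in knockout on the log2 scale, than at P5, where it was 0.229 and 0.240. In P0 wild-type sample 1 the 18S ribosomal RNA signal was 7728, against 48911 to 110512 in the other 11 samples. The first principal component, with 38.9% of the variance, split the P0 arrays across genotypes: wild-type samples 1 and 3 and knockout sample 1 lay at -71.0, -54.7 and -48.3, and wild-type sample 2 and knockout samples 2 and 3 at -18.1, -7.9 and -5.0. Leaving out P0 wild-type sample 2 raised the number of probe sets called at P0 from 5 to 2962.

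Grin3b transcript was lower in every knockout sample than in every wild-type sample of the same age, but the difference did not pass the threshold over all probe sets. At P0 the signals of its probe set (1449899_at) were 353, 198 and 304 in wild-type samples 1, 2 and 3 and 31.4, 38.8 and 96.9 in knockout samples 1, 2 and 3. At P5 they were 273, 168 and 155 in wild type and 48.5, 39.7 and 45.4 in knockout. The groups did not overlap at either age, and P0 knockout sample 3 was the highest of the 6 knockout samples. In group order, P0 wild type (285 ± 79.3, SD, n = 3) and P5 wild type (199 ± 64.8, n = 3) overlapped each other, as did P0 knockout (55.7 ± 35.9, n = 3) and P5 knockout (44.5 ± 4.44, n = 3).

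Differences between groups are given as log2 differences of quantile-normalised log2(signal + 16), which understates the change of dim probe sets such as this one, and a probe set is called where its limma p, adjusted by Benjamini-Hochberg over all 45037 probe sets, is under 0.05. Grin3b differed by -2.11 (SE 0.49, 95% interval -3.16 to -1.06) at P0, with an adjusted p of 0.359, and by -1.75 (SE 0.49, interval -2.80 to -0.69) at P5, with an adjusted p of 0.9999. The average over both ages was -1.93 (SE 0.35), a 3.81-fold lower level, with an adjusted p of 0.237 and rank 13 of all probe sets by p. The two-sided exact permutation test gave p = 0.1 within each age, the smallest it can give with 3 samples a group, and p = 0.005 over both ages, again the smallest possible. Without P0 wild-type sample 2 the P0 difference was -2.32 and passed in limma (adjusted p = 0.0294), in the setting where 2962 probe sets pass.

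The Grin3b probe set was dim even in wild type. Within the arrays it stood at the 22.2 to 34.6 percentile in P0 wild types and at 17.4 to 28.6 in P5 wild types, against 4.6 to 12.6 and 6.3 to 6.5 in the knockout groups of those ages. The position of its probes relative to the deleted segment was not used here, so its low level in knockout is a description and not a check of the labels. Summed signals of 6 motor neuron markers overlapped between genotypes, at 9988 to 13008 in P0 wild types against 9860 to 12771 in P0 knockouts, and at 5166 to 5843 in P5 wild types against 4209 to 5539 in P5 knockouts, with Mnx1 and Chat below the 40th percentile. The sums of 8 Hox genes of hindbrain and spinal cord overlapped at P0, at 33510 to 58274 in wild type and 35256 to 50016 in knockout. At P5 they did not, with 24977 to 25747 in wild type and 19778 to 24557 in knockout, and 0 of the 8 genes were called between genotypes at either age. The part of this difference in the Grin3b values was not tested. In such bulk tissue, fewer cells of a type and less RNA per cell cannot be told apart.

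Tmem259 was the neighbour whose signal fell, and the signal fell at both ages. Tmem259 encodes membralin, a membrane protein of the endoplasmic reticulum that takes part in the degradation of misfolded proteins. Loss of membralin is known to harm motor neurons in mice. At P0 the signals of its probe set (1427109_at) were 4446, 6281 and 4817 in wild-type samples 1, 2 and 3 and 587, 342 and 95 in knockout samples 1, 2 and 3. At P5 they were 5571, 5944 and 5465 in wild type and 541, 592 and 596 in knockout. No knockout sample came near the lowest wild-type sample, the P5 knockout samples were close to each other, and the P0 knockout samples were spread widely with sample 3 the lowest. As for Grin3b, the position of the probes relative to the deleted segment was not used here. The low signal thus describes this single probe set, and whether the Tmem259 transcript as a whole fell was not tested.

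**Figure D1:**
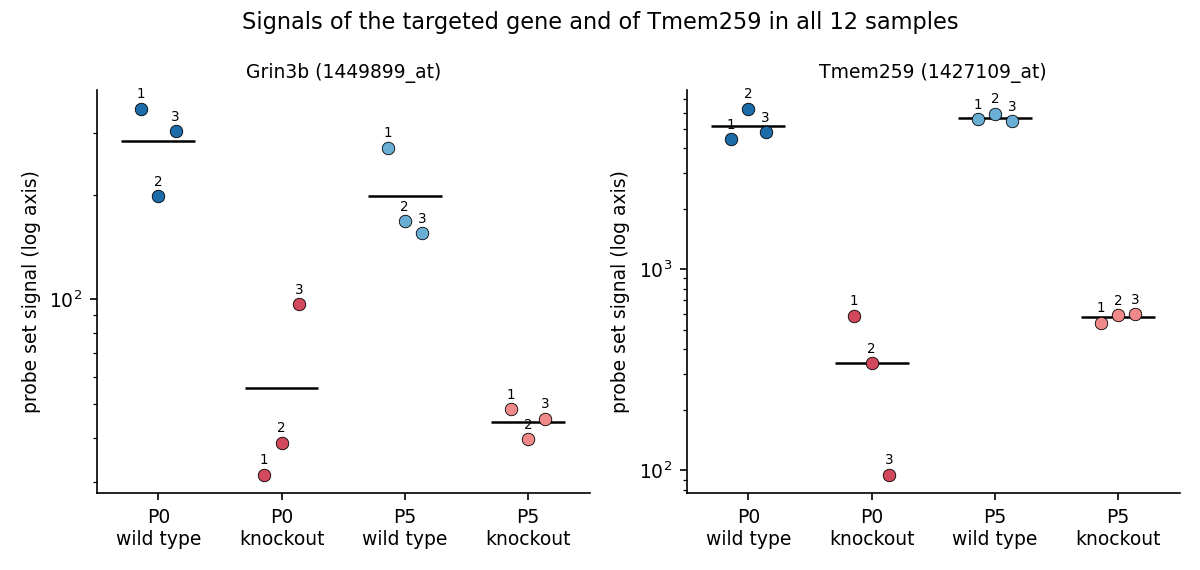
Signals of the Grin3b (left) and Tmem259 (right) probe sets on log axes in the 12 samples, 3 per group, with the sample number above each point and the group mean as a line. In both panels all knockout points lie below all wild-type points of the same age, from 5181 to 341 in group means at P0 for Tmem259.

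The mean signal of Tmem259 was 5181 ± 970 in P0 wild types, 341 ± 246 in P0 knockouts, 5660 ± 252 in P5 wild types and 577 ± 30.6 in P5 knockouts (SD, n = 3 each). At P0 the log2 difference was -4.14 (SE 0.39, 95% interval -4.97 to -3.31), a 17.6-fold lower level (limma, adjusted p = 0.00163). At P5 it was -3.24 (SE 0.39, interval -4.07 to -2.41), a 9.43-fold lower level (adjusted p = 0.0169). Averaged over both ages it was -3.69 (SE 0.27), 12.9-fold (adjusted p = 8.03e-05), which is rank 1 of all probe sets by p. The mean log2 level in P0 knockouts, 8.17, lay below 8.72, the 40th percentile of all probe sets, so the size of the P0 fold rests on a dim reading.

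Tmem259 was the only one of the 20 probe sets called in a comparison of the genotypes. At P0 this is 1 of 20, where 0.0111% of all probe sets were called. At P5 it is again 1 of 20, against 0.00444% of all probe sets, and for the average over both ages 1 of 20 against 0.0111%. The P0 call held without each sample in turn and was lost in a fit to the P0 samples alone (adjusted p = 0.288), while the average passed under all 21 alternatives tried (adjusted p 1.65e-07 to 0.0154). The P5 call was lost without any 1 of the 6 P5 samples or without P0 wild-type sample 3 (adjusted p 0.0591 to 0.189), with a constant prior (0.166) and with P0 wild-type samples 1 and 2 both left out (0.118), with the difference between -3.27 and -3.14 in every alternative.

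Tmem259 did not pass the threshold with age. In wild type the difference of P5 minus P0 was 0.15 (adjusted p = 0.874), and in knockout it was 1.05 (adjusted p = 0.184), with overlapping samples. Without P0 knockout sample 1 the knockout difference was 1.55 and passed (adjusted p = 0.0214). The genotype difference was 0.90 smaller in size at P5 than at P0 (interaction, SE 0.55, 95% interval -0.28 to 2.07, adjusted p = 0.838). For Grin3b the interaction was 0.36 (SE 0.70, adjusted p = 0.928).

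The 2 genes whose groups did not overlap in the same direction at both ages were Grin3b and Tmem259, which is 2 of 20 probe sets, where 0.777% of all probe sets separated in this way. Over the 12 samples their log2 levels had a Pearson correlation of 0.776, and these points share their groups and their arrays. Among 23191 other probe sets with a single symbol at or above the 40th percentile, the profiles most like Grin3b over the 12 samples were those of Rmst (r = 0.904), Hrh1 (0.872), Slc11a2 (0.864), Zfp420 (0.863) and Crtc1 (0.848). For Tmem259 they were Pitpnc1 (r = 0.946), Zfp84 (0.890), Cpeb3 (0.884), Mex3c (0.883) and Celf1 (0.878). Averaged over both ages, the Rmst set was itself called lower in knockout, by -4.05 (limma, adjusted p = 0.0461). The sets of Hrh1, Slc11a2, Zfp420 and Crtc1 were at -0.69 to -0.35, and those named for Tmem259 at -0.68 to -0.49, without a call. The correlations are descriptions over samples in 4 groups.

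Other NMDA receptor subunits did not pass the threshold with genotype or with age. Of 6 subunits looked for, 5 were measured through a probe set with their symbol alone, the brightest of each, and 0 were called. The subunit without a value was Grin1, which encodes GluN1. Averaged over both ages, knockout minus wild type was -0.33 (SE 0.30) for Grin2a, -0.02 (SE 0.13) for Grin2b, 0.31 (SE 0.26) for Grin2c, 0.12 (SE 0.18) for Grin2d and 0.08 (SE 0.15) for Grin3a, the paralog of Grin3b. Adjusted limma p-values of this average ran upward from 0.745, that of Grin2c. Grin2d had an adjusted p of 0.565 at P0 (0.37), and with age in knockout it was at -0.80 (adjusted p = 0.117). Grin2a and Grin2c lay below the 40th percentile, so small changes in them were hard to measure.

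Wdr18, the nearest gene on the other side of Grin3b, encodes a WD-repeat protein of a complex that processes ribosomal RNA precursors. Its brightest probe set (1433635_at) read 3601, 3916 and 4110 in P0 wild types, 2978, 4690 and 5560 in P0 knockouts, 4337, 3463 and 4448 in P5 wild types and 4414, 5387 and 4101 in P5 knockouts. The groups overlapped in each comparison. Knockout minus wild type was 0.17 (SE 0.20, 95% interval -0.27 to 0.61) at P0 and 0.20 (SE 0.20, interval -0.24 to 0.64) at P5. The second probe set (1454695_at) went the other way, at -0.42 (SE 0.26) and -0.23 (SE 0.26), and the remaining probe sets were at -0.53 and 0.18 (1460622_x_at) and at 0.30 and -0.18 (1443758_at). The 4 probe sets of Wdr18 thus gave no common direction and none passed. The suffix x_at marks sets whose probes can also bind other transcripts.

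Med16, further out on the same side, is a subunit of the tail of Mediator, the complex that links transcription factors to RNA polymerase II. The signals of its probe set (1438416_at) were 4509, 4299 and 5263 in P0 wild types and 3960, 4196 and 3935 in P0 knockouts. At P5 they were 3809, 3954 and 4125 in wild type and 3860, 3716 and 4600 in knockout. All P0 knockout samples lay below all P0 wild-type samples, by -0.18 (SE 0.13, 95% interval -0.45 to 0.10, adjusted p = 0.589). At P5 the groups overlapped (0.04, interval -0.23 to 0.32).

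Cnn2 follows Tmem259 on the far side from Grin3b and encodes calponin 2, which binds actin filaments in smooth muscle and in many other cells. It rose with age in both genotypes. The signals of its probe set (1450981_at) were 984, 915 and 896 in P0 wild types, 1076, 1330 and 1014 in P0 knockouts, 1972, 1726 and 1825 in P5 wild types and 2011, 1785 and 1874 in P5 knockouts. Every P5 sample lay above every P0 sample, and at P0 every knockout sample lay above every wild-type sample. At P0 the genotype difference was 0.34 (SE 0.16, 95% interval 0.00 to 0.69), which did not pass (adjusted p = 0.419). The P5 value was 0.07 (interval -0.28 to 0.41).

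From P0 to P5, Cnn2 rose by 0.96 (SE 0.16), 1.95-fold, in wild type (limma, adjusted p = 0.00314) and by 0.69 (SE 0.16), 1.61-fold, in knockout (adjusted p = 0.0305). The wild-type call held under all 22 alternatives (adjusted p 0.000857 to 0.0242). The knockout call was lost without P0 knockout sample 1 or 3 or any 1 of the P5 samples (adjusted p 0.0503 to 0.115) and in a fit to the knockout samples alone (0.0773). The rise was not shown to differ between genotypes (interaction -0.27, SE 0.23, adjusted p = 0.839).

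Marker genes of cell types other than neurons are set beside Cnn2 here, and their part in its values was not tested. The summed signals of 8 markers of meninges and fibroblasts were 63270 to 90731 in P0 wild types, 127621 to 157125 in P0 knockouts, 142740 to 166574 in P5 wild types and 150276 to 164588 in P5 knockouts, so they shared the group order of Cnn2 at P0. For 6 endothelial markers the sums were 10774 to 13057, 12710 to 14365, 17119 to 19550 and 16754 to 19142 in that order of groups, with overlap between genotypes at each age. For 8 microglial markers they were 16433 to 24646, 24032 to 29849, 28811 to 30242 and 35209 to 37213. For 4 smooth muscle markers they were 2711 to 4545, 3641 to 4825, 4359 to 6059 and 3761 to 5044, with Myh11 and Cnn1 below the 40th percentile. Of 6 red blood cell genes, 4 were measured, with sums of 997 to 1978, 2728 to 4085, 2810 to 4546 and 4117 to 6651. These sums too were higher in all P0 knockouts than in all P0 wild types, with Hba-a1 and Hbb-bh1 below the 40th percentile. For 6 astrocyte markers the sums were 152887 to 239956, 189041 to 195396, 238018 to 246328 and 240113 to 261150, and for 5 measured oligodendrocyte markers 40079 to 60382, 35632 to 59109, 216274 to 238979 and 186608 to 232528. In these 7 lists 0 genes were called between genotypes at either age. With age, all 5 oligodendrocyte genes were called higher in both genotypes, and 3 astrocyte genes in wild type and 4 in knockout. In wild type 3 meningeal, 1 microglial, 1 endothelial and 1 red blood cell gene were also called higher at P5, and in knockout 2 microglial and 1 endothelial gene were. Of the calponin and transgelin family, 0 of 5 measured genes, each read through its brightest probe set, were called with genotype. Cnn3 rose with age beside Cnn2, by 0.56 in wild type (adjusted p = 0.00978) and by 0.51 in knockout (0.0211).

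Abca7, next after Cnn2, encodes a lipid transporter of the ABC family known from phagocytosis and from the genetics of Alzheimer's disease. Its probe set (1419238_at) read 739, 215 and 651 in P0 wild types, 171, 804 and 506 in P0 knockouts, 754, 633 and 501 in P5 wild types and 443, 501 and 475 in P5 knockouts. P0 wild-type sample 2 and P0 knockout sample 1 were far below the others of their groups, and the genotypes overlapped at P0 and at P5. The genotype difference was -0.11 (SE 0.51, 95% interval -1.21 to 0.98) at P0 and -0.34 (SE 0.51, interval -1.43 to 0.76) at P5. The P0 interval reaches past a 2-fold lower level and nearly to a 2-fold higher one. Of 8 other ABC transporters of the A class, each read through its brightest probe set, 0 were called with genotype, and Abca9 had the smallest p (0.27, adjusted p = 0.670).

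Polr2e encodes a subunit shared by the nuclear RNA polymerases. Its brightest probe set (1417138_s_at) read 3653, 7400 and 5666 in P0 wild types, 5501, 7034 and 7196 in P0 knockouts, 8168, 8315 and 8217 in P5 wild types and 7740, 7176 and 8076 in P5 knockouts. P0 samples were spread widely, with wild-type sample 1 the lowest, and all P5 knockout samples lay just below all P5 wild-type samples. Knockout minus wild type was 0.31 at P0 (SE 0.21, adjusted p = 0.549) and -0.11 at P5 (SE 0.21, adjusted p = 0.9999).

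The P5 minus P0 difference of this Polr2e probe set was 0.65 (SE 0.21) in wild type, with an adjusted p of 0.0847, and 0.23 in knockout. Without P0 wild-type sample 2 it was 0.90 in wild type and passed (adjusted p = 0.00353), and without sample 1 it was 0.36 (adjusted p = 0.278). The P0 genotype difference of this set was 0.57 without P0 wild-type sample 2 and 0.02 without sample 1. A second probe set (1451093_at) differed by -0.15 and -0.31 between genotypes at P0 and P5. The third (1458326_at) was dim, at the 11.6 percentile in its mean, and its P0 difference of 1.36 (SE 0.71, adjusted p = 0.453) was the one value beyond 1 among the 18 probe sets other than Grin3b and Tmem259. Its signals overlapped, at 196, 36.3 and 18.1 in P0 wild types against 126, 263 and 144 in P0 knockouts, and its difference at P5 was -0.65.

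Gpx4, the selenoenzyme that reduces lipid hydroperoxides in membranes and guards cells against ferroptosis, lies after Polr2e and had bright probe sets. The set 1451695_a_at read 11868, 28336 and 15379 in P0 wild types, 16625, 30757 and 27784 in P0 knockouts, 33949, 31006 and 30411 in P5 wild types and 29497, 29469 and 36647 in P5 knockouts. P0 wild-type samples 1 and 3 and P0 knockout sample 1 were low, at about the level of each other, while the other P0 samples approached the P5 samples. These same 3 arrays lay apart on the first principal component and had the lowest 18S ribosomal RNA signals, 7728, 48911 and 78423, against 90245 to 102801 in the other P0 samples. The part of this split in the Gpx4 and Polr2e values, with genotype and with age, was not tested. Knockout minus wild type was 0.44 at P0 (SE 0.25, adjusted p = 0.474) and -0.02 at P5 (SE 0.25, adjusted p = 0.9999). Without P0 wild-type sample 2 the P0 difference was 0.76 and passed (adjusted p = 0.0348), in the same setting in which 2962 probe sets pass. Without P0 wild-type sample 1 it was 0.19 (adjusted p = 0.869), and without P0 knockout sample 1 it was 0.67 (adjusted p = 0.165).

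With age, this Gpx4 probe set rose by 0.90 (SE 0.25), 1.87-fold, in wild type (limma, adjusted p = 0.0450), and in knockout the difference was 0.44 (adjusted p = 0.424) with all P0 knockout samples below all P5 knockout samples after normalisation. In wild type the difference was 0.65 without P0 sample 1, 1.22 without sample 2 and 0.84 without sample 3. The call passed in 10 of 22 alternatives. It was lost when any 1 of the P5 samples, P0 knockout sample 3, or sample 1 or 3 of P0 wild type was left out (adjusted p 0.0509 to 0.185), on the deposited scaling (0.0834), with a constant prior (0.136) and in a fit to the wild-type samples alone (0.0894). The set 1456193_x_at read 9664, 23263 and 10598, then 9978, 22461 and 21804, then 27648, 23520 and 18143, and then 21660, 18653 and 29280 in the same order of groups, with the same P0 samples low. Its wild-type age difference was 0.81 (SE 0.32, adjusted p = 0.158), and without P0 wild-type sample 2 it was 1.19 and passed (adjusted p = 0.0110), while without sample 1 it was 0.58 (adjusted p = 0.443).

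**Figure D2:**
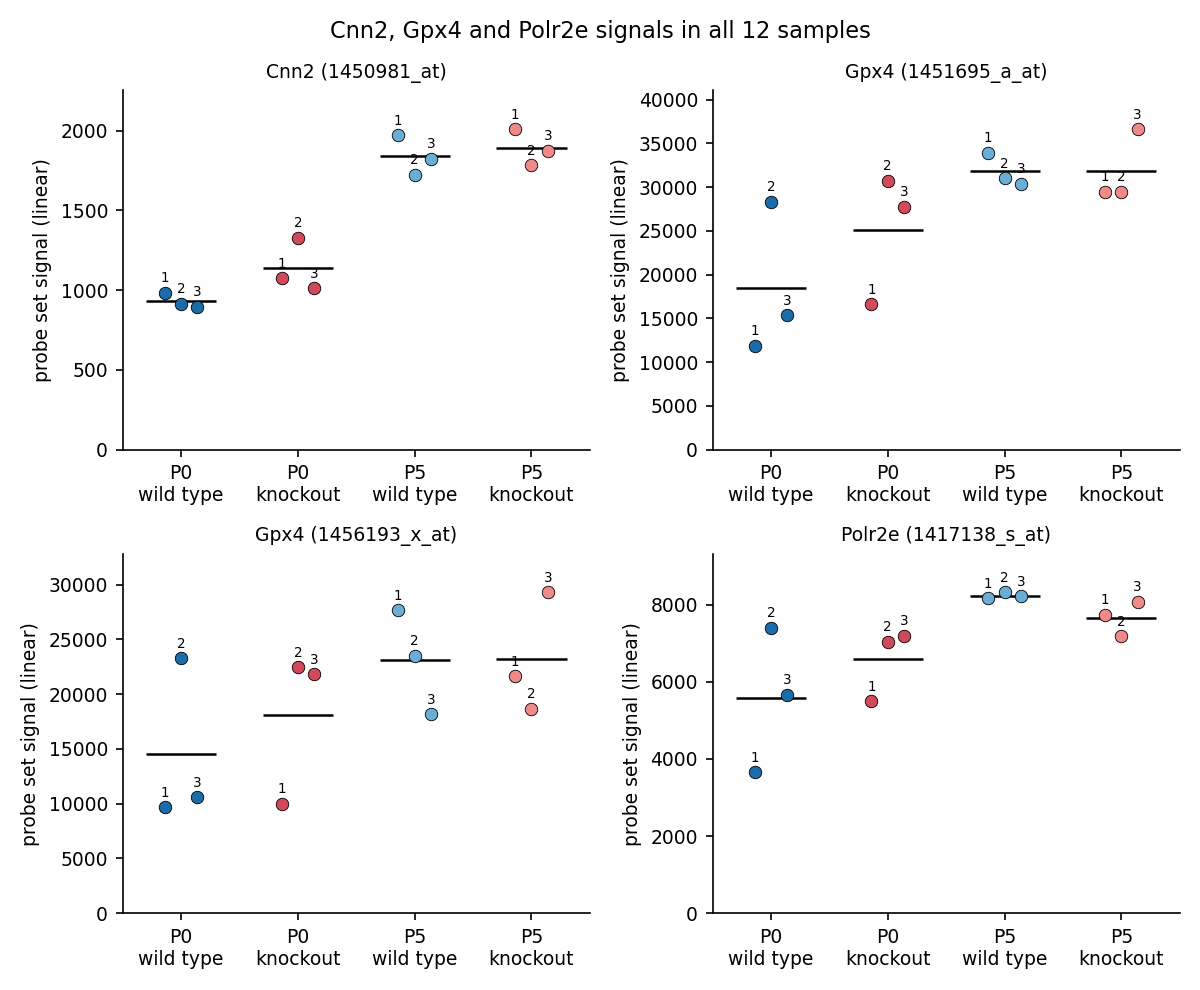
Signals on linear axes from 0 of the probe sets of Cnn2, Gpx4 (both sets) and Polr2e (1417138_s_at) in the 12 samples, with the sample number above each point and the group mean as a line. Cnn2 rises from 932 to 1841 in wild-type group means, and for both Gpx4 sets and Polr2e the P0 wild-type samples 1 and 3 lie below sample 2.

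Sbno2, a homologue of Drosophila strawberry notch that acts in the transcriptional response of macrophages to interleukin-10, had 4 probe sets, all near or below the 40th percentile. The set 1439349_at read 750, 648 and 485 in P0 wild types, 533, 549 and 215 in P0 knockouts, 475, 253 and 357 in P5 wild types and 442, 206 and 323 in P5 knockouts, and the genotypes overlapped. Knockout minus wild type was -0.58 at P0 and -0.14 at P5 (SE 0.38 each). The set 1443721_x_at went the other way at P0, by 0.63 (SE 0.33, adjusted p = 0.453), and was at 0.04 at P5. The other sets were at -0.06 and 0.00 (1458308_at) and at -0.65 and 0.91 (1441840_x_at, at the 6.8 percentile in its mean). The last set read 418 in P0 wild-type sample 2 against 53.0 and 55.7 in samples 1 and 3, and without sample 2 its P0 difference was 0.23. These 4 probe sets of 1 gene agreed on no direction, and none passed.

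Stk11, the outermost gene on this side, encodes LKB1, the kinase that switches on AMPK when energy is short. Its bright probe set (1418644_a_at) read 3831, 4072 and 5013 in P0 wild types, 3811, 4722 and 4563 in P0 knockouts, 4190, 4633 and 4364 in P5 wild types and 4234, 4411 and 4112 in P5 knockouts. The groups overlapped in each comparison, and the genotype difference was 0.06 (SE 0.14, 95% interval -0.24 to 0.35) at P0 and -0.03 (interval -0.33 to 0.26) at P5. Of the 20 probe sets, only that of Med16 had a smaller SE. The dimmer set (1448062_at) was at 0.19 (SE 0.33) and -0.24 (SE 0.33).

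**Figure D3:**
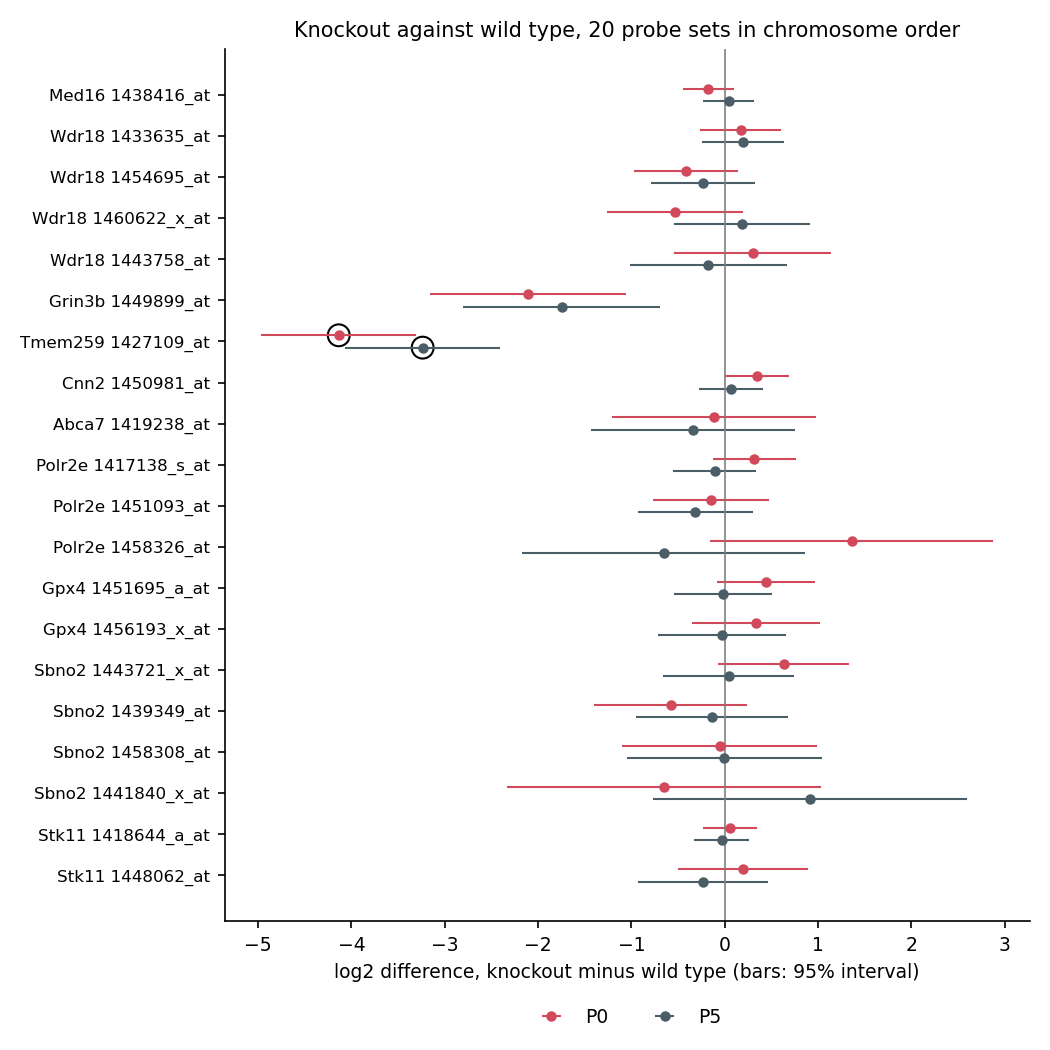
Log2 difference of knockout minus wild type with its 95% interval for the 20 probe sets in chromosome order, at P0 and at P5, from the limma fit; rings mark adjusted p under 0.05. Grin3b (-2.11 and -1.75) and Tmem259 (-4.14 and -3.24) lie far left of 0, and the other 18 probe sets lie between -0.65 and 1.36.

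Over the 18 probe sets other than Grin3b and Tmem259, the genotype difference ran from -0.65 to 1.36 at P0, from -0.65 to 0.91 at P5 and from -0.36 to 0.35 in the average over both ages, with lowest adjusted p-values of 0.419, 0.9999 and 0.659. The median over all 20 was 0.00 at P0 and -0.07 at P5, and over all probe sets tested it was 0.00 at both ages. At P0, 4 of 20 probe sets had groups that did not overlap (Med16, Grin3b, Tmem259 and Cnn2), where 10.7% of all probe sets did. At P5, 3 of 20 did (Grin3b, Tmem259 and 1417138_s_at of Polr2e), where the share over all probe sets was 11.7%. Without Grin3b and Tmem259 these counts are 2 and 1 of 18 probe sets, close to the background.

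The stretch around these genes was looked at through the 25 nearest measured genes with a name on each side of Grin3b that are not among the 10, which have 78 probe sets. Of these, 0 were called at P0, at P5 or in the average over both ages. The median difference was 0.19 at P0 and 0.03 at P5, and the range was -1.06 to 1.10 at P0 and -1.24 to 1.08 at P5. The probe sets with the smallest p in the average were those of Cirbp, which encodes a cold-inducible RNA-binding protein (0.30), Tcf3, an E-protein transcription factor (-0.66 for 1452542_x_at), Rnf126, a ubiquitin ligase (0.35), and Rexo1 (-0.95 for 1429489_at), each with an adjusted p of 0.637. The brighter Tcf3 sets went the other way in the average, at 0.13 (1426297_at) and 0.20 (1427764_a_at). The other Rexo1 sets were at -0.11 (1429124_s_at) and -0.38 (1457116_at). At both ages Grin3b and Tmem259 lay below the lowest of the 78 probe sets.

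**Figure D4:**
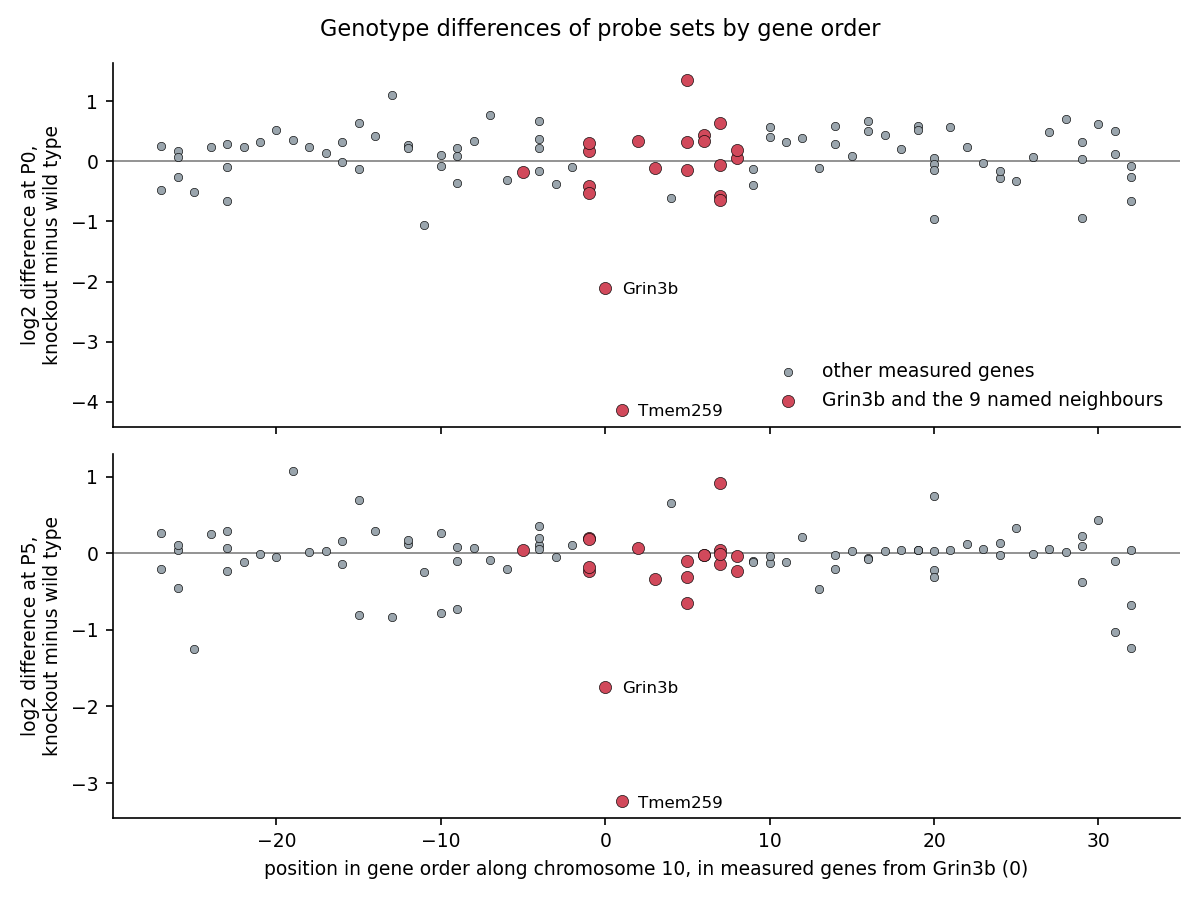
Log2 difference of knockout minus wild type at P0 (top) and P5 (bottom) for all probe sets of the 10 genes (large points) and of the 50 other measured genes (small points), placed by rank in gene order with Grin3b at 0. Grin3b and the adjacent Tmem259 lie below the lowest small point, -1.06 at P0 and -1.24 at P5.

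With age, 2 of the 20 probe sets were called in wild type, Cnn2 and 1451695_a_at of Gpx4, both higher at P5, where 5.81% of all probe sets were called. In knockout 1 of 20 was called, Cnn2, against 3.50% of all probe sets. The groups of the 2 ages did not overlap for 6 of 20 probe sets in wild type, where 24.7% of all probe sets separated, and for 3 of 20 in knockout, where 22.1% did. The 6 were Cnn2, Gpx4 (1451695_a_at) and Polr2e (1417138_s_at), which were higher at P5, and Med16 (-0.23, adjusted p = 0.319) and the Sbno2 sets 1439349_at (-0.79, adjusted p = 0.251) and 1441840_x_at (-1.34, adjusted p = 0.353), which lay lower without passing. The last value was -0.46 without P0 wild-type sample 2, the bright one for that Sbno2 set. In knockout the 3 were the same Cnn2, Gpx4 and Polr2e sets. For Gpx4 and Polr2e the knockout samples of both ages separate after quantile normalisation only, and their deposited signals overlap. The median age difference of the 20 was 0.10 in wild type and -0.03 in knockout, against -0.03 and -0.02 over all probe sets.

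**Figure D5:**
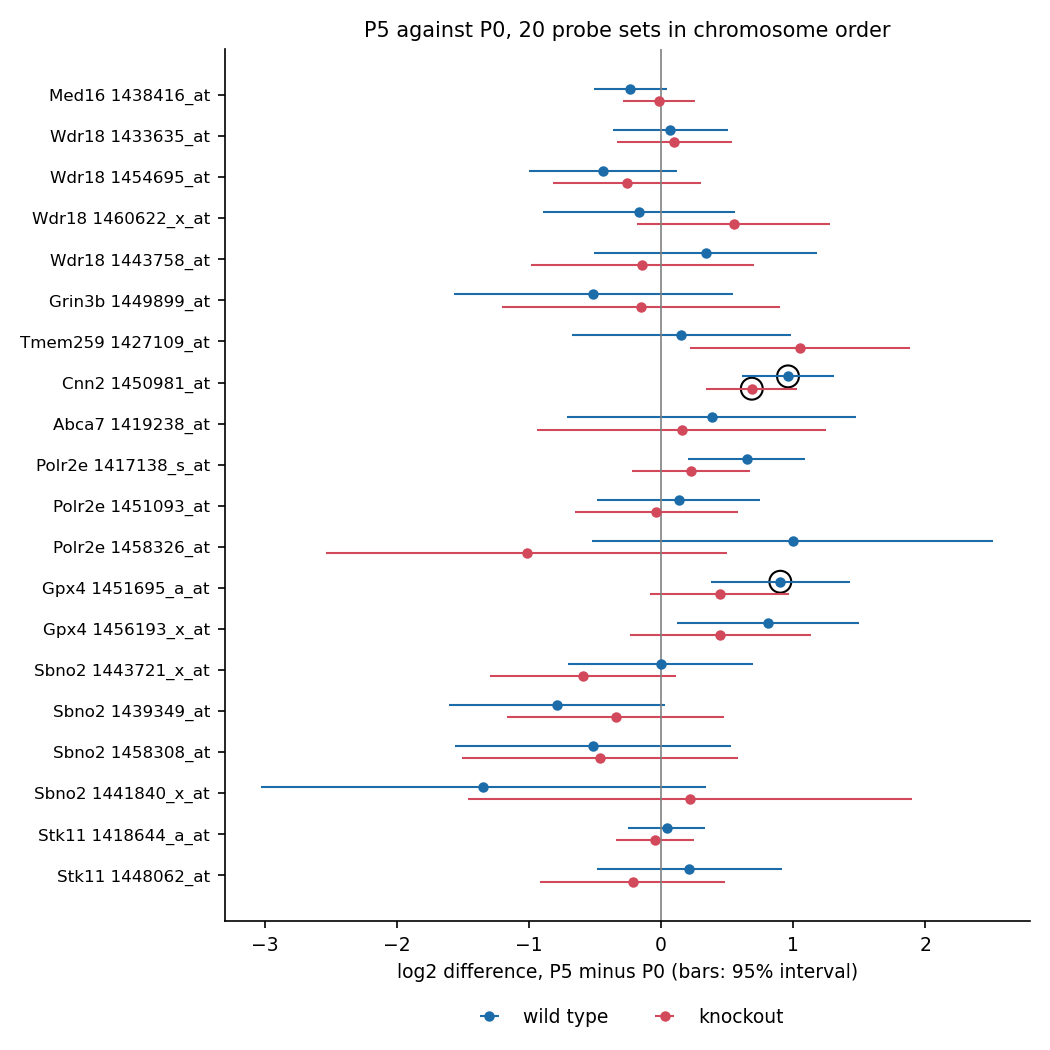
Log2 difference of P5 minus P0 with its 95% interval for the 20 probe sets in chromosome order, in wild type and in knockout, from the limma fit; rings mark adjusted p under 0.05. Cnn2 (0.96 and 0.69) and, in wild type, Gpx4 (0.90) pass the threshold.

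Of the 78 probe sets of the wider neighbours, 7 changed with age in wild type (limma, adjusted p 0.00374 to 0.0435). Those of Ptbp1, a splicing repressor (0.74 for 1424874_a_at), Atp5d (0.75), Ndufs7 (0.95), Gamt, an enzyme of creatine synthesis (1.47), and Tcf3 (0.91 for 1427764_a_at) rose. Those of Plppr3 (-0.51) and Cbarp (-0.77) fell. Other sets of these genes did not pass. They were at 0.22 and -0.05 for Ptbp1, 0.25 and 0.23 for Tcf3, 0.68 for Atp5d, 0.74 for Ndufs7 and -0.41 for Cbarp. In knockout, 3 changed (adjusted p 0.00264 to 0.0448): the same Ptbp1 set rose by 0.74, and Plppr3 (-0.79) and Cirbp (-0.50) fell. The other Ptbp1 sets were at -0.09 and -0.42 in knockout. The sets that changed are 8.97% of the 78 in wild type and 3.85% in knockout, against 5.81% and 3.50% of all probe sets, so both shares lie near the background.

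No probe set of the 10 genes passed a test of the difference between the genotype effects at the 2 ages. The count was 0 of 20 in limma, as it was over all probe sets, where 0% were called at the adjusted threshold and 2243 had an unadjusted p under 0.05. The widest interaction among the 20 was that of the dim Polr2e set 1458326_at, -2.01 (SE 1.0, adjusted p = 0.838), whose difference was 1.36 at P0 and -0.65 at P5.

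No measured partner or relative on the lists made for the 10 genes passed the threshold with genotype, and for Tmem259 no list was made. Of 81 genes listed, 78 were measured, and only the brightest probe set of each was looked at. On these sets 0 of the 78 genes were called with genotype at P0, at P5 or in the average. Their average differences ran from -0.36 to 0.59 with a median of 0.08. The smallest p in the RNA polymerase II subunits was that of Polr2d (0.32), in the glutathione peroxidases of Gpx8 (0.54), in the LKB1 complex and AMPK of Prkaa2, a catalytic subunit of AMPK (-0.36), and in the Mediator of Med29 (0.59), while Sbno1, the paralog of Sbno2, was at -0.30, each with an adjusted p of 0.637. In the complex that holds Wdr18 it was that of Mdn1 (-0.19, adjusted p = 0.671), and Tagln3 led the calponin family (0.22, adjusted p = 0.728).

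With age in wild type, 6 of the 78 rose and 1 fell by their brightest probe sets, where 5.81% of all probe sets, bright and dim, were called. Beside Cnn3, the glutathione peroxidases Gpx7 (0.93, adjusted p = 0.0241) and Gpx8 (1.15, adjusted p = 0.0123) rose, as 2 of 5 measured relatives of Gpx4. Polr2g (0.74, adjusted p = 0.0389), Cab39l from the list for the LKB1 complex and AMPK (0.67, adjusted p = 0.0191), and Med27 (0.63, adjusted p = 0.0370) rose as well, and Abca3 fell by 0.52 (adjusted p = 0.0307). Cab39, on the same list as Cab39l, was at -0.40 and did not pass (limma, adjusted p = 0.0893). In knockout 2 of the 78 rose, Cnn3 and Cab39l (0.60, adjusted p = 0.0433), against 3.50% of all probe sets. Values for Gpx7, Gpx8, Polr2g and Med27 in knockout were 0.32, 0.38, 0.12 and 0.15, and whether these differ from wild type is given by no test here. At P0, knockout minus wild type was 0.70, 0.92, 0.55 and 0.25 for the same genes in that order, without a call. The part of the split of the P0 arrays in these values was not tested.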

How the data were processed

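Total RNA of the 12 samples had been read on single-colour arrays. The deposited unit is a linear intensity per probe set, which the authors had scaled so that each array's mean without its highest and lowest 2% was 2500.01. The software and the genome build behind them are not given in the sources used here. Of 45101 probe sets, 64 controls were left out, and symbols came from the platform annotation (34945 single, 932 several, 9160 none). Signals were taken as log2(signal + 16), quantile-normalised, and fitted with a mean per group over all 12 samples in limma 3.58.1 (R 4.3.3), with an intensity-dependent prior (8 residual and 6.22 prior degrees of freedom) and no filter on dim probe sets. Folds are 2 to the power of the size of a difference. Exact permutation tests had 20 labelings within an age and 400 over both. The code was tested on simulated data. The number of arrays, 3 per group, limits the precision.

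The members and lists were chosen with earlier results of these data known. All 20 probe sets of the 10 genes are named. Wider neighbours are named where they passed or had the 4 smallest p in the average. Relatives are named where they passed or had the smallest p of their group, and all measured NMDA receptor subunits were named after their values were seen. Relatives, these subunits and marker genes were each read through their brightest probe set alone. For profiles like a gene, the 5 highest correlations are given. RefSeq tables of GRCm38.p6 gave gene order and promoter sequences. Alternatives were another pseudocount, the deposited scaling, filters on dim probe sets, array weights, a constant prior, a replicate block, fits to the compared groups, and leaving samples out.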

Additional observations from a re-analysis of the deposited data

How the results depend on the processing

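Over 2498 values of the 20 probe sets under alternatives, 2436 kept their side of the threshold and moved by less than the spread, 31 lost a call, 8 gained one, 0 called values reversed, and 126 values past the threshold in neither setting changed sign. The number of the 20 probe sets called at P0 was 0 in a fit to the compared groups, and 1 to 3 leaving out each sample in turn. At P5 it was 0 with a constant prior, 0 without P0 wild-type samples 1 and 2 (an alternative chosen after seeing the data), and 0 to 1 leaving out each sample. With age in wild type it was 1 on the deposited scaling, 4 with array weights, 1 with a constant prior, 1 in a fit to the compared groups and 1 to 4 leaving out each sample. With age in knockout it was 0 in a fit to the compared groups and 0 to 1 leaving out each sample. The cause of these changes was not tested. Grin3b lies below the filter on dim probe sets and has no value under it.

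Over all probe sets, 5 were called at P0 (1 to 2962 leaving out each sample, 0 to 53 otherwise), 2 at P5 (0 to 3, and 0 to 9), 5 in the average (2 to 30, and 2 to 9), 2615 with age in wild type (1088 to 6997, and 1161 to 6882), 1577 with age in knockout (691 to 2258, and 829 to 2380) and 0 in the interaction (0, and 0 to 2).

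Replicate numbers are shared between groups in the labels. Same-numbered wild-type and knockout samples had correlations of their deviations of 0.409, 0.315 and 0.055 at P0 and -0.046, -0.115 and -0.115 at P5. Of 6 samples, 4 at P0 and 0 at P5 correlated best with their own number. No label says that the numbers pair samples, and the main fit did not pair them. A pairing at P0 alone was not tested, because the replicate block spans both ages. With the replicate block, Tmem259 had an adjusted p of 0.00247 for P0, 0.0199 for P5 and 0.000151 for both ages averaged, and no call among the 20 probe sets changed.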
